A study of Homo sapiens with 12 samples.

Results

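The change in gene expression after the compound 18E was set against the change after siDYN knockdown, gene by gene, in NCI-H1975 and HCC827, 2 established lines of EGFR-mutant human lung adenocarcinoma. The 18E change was that of cells given 5 µM 18E for 24 h over cells given DMSO. The knockdown change was the mean of 2 changes, those of cells given siDYN-1 or siDYN-2 for 48 h over cells given the control siRNA siCON. Each line had 1 library of each of these 5 treatments, and 1 library at 2.5 µM 18E (24 h) that took no part in choosing genes. 18E is a code name, the labels name no target for the siDYN siRNAs, and no time is given for the DMSO and siCON cells.

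Genes were taken where both deposited tables gave a value in all 6 of their libraries and where at least 2 libraries of each table reached 1 FPKM (fragments per kilobase of transcript at a common library scale). This left 11449 of 16426 genes. All changes are differences of log2(FPKM + 1), which understates the change of low genes. Genes were called apart where the 18E change minus the knockdown change reached 1 in size, in the same direction in both lines. They were called opposite where the changes had opposite signs in both lines, and shared where they had the same sign, with all 4 changes at least 0.5 in size. In all, 486 genes fell into at least 1 class. The classes are set by these values, so their sizes are descriptions without a test, and so are the members' changes.

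Cytoplasmic dynein is the motor that carries cargo toward the minus ends of microtubules, and its light intermediate chains join the motor to cargo adaptors. Several of the gene groups met here belong to stress programmes. Misfolded cytosolic proteins release the heat shock factors, which induce chaperones. Misfolded proteins in the endoplasmic reticulum (ER) trigger the unfolded protein response, and phosphorylation of the translation factor eIF2 raises ATF4 and CHOP, the core of the integrated stress response. Interferons act through STAT factors to induce antiviral genes and the machinery that presents peptides on HLA molecules.

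DYNC1LI1, which encodes a dynein light intermediate chain, checked the siRNA labels. In NCI-H1975 it stood at 5.1 FPKM with siDYN-1 and 3.04 FPKM with siDYN-2, against 23.7 FPKM with siCON. In HCC827 it stood at 2.42 and 1.22 FPKM, against 16.3 FPKM. It fell in limma's fit of all 10 libraries, by 2.48 on the log2 scale (SE 0.24, Benjamini-Hochberg adjusted p = 0.0282). With 18E it was no lower than with DMSO, at 29.4 against 21.4 FPKM in NCI-H1975 and 25.0 against 13.6 FPKM in HCC827 (adjusted p = 0.194 in the same fit). It therefore ranked among the genes apart with 18E higher, with differences of 2.76 and 3.48. Its relative DYNC1LI2 was lower with both agents and in no class, with changes of -0.52 for 18E and -0.37 for knockdown in NCI-H1975, and of -0.65 for 18E and -0.58 for knockdown in HCC827 (limma adjusted p = 0.0818 for 18E and 0.11 for siDYN).

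The 2 responses moved together in part, more so in NCI-H1975. Over the 11449 genes, Pearson's r between the 18E change and the knockdown change was 0.43 in NCI-H1975 and 0.2 in HCC827, a description across genes that share libraries and are not independent replicates. Across lines, the NCI-H1975 18E change had r = 0.34 with the HCC827 knockdown change, and the HCC827 18E change had r = 0.18 with the NCI-H1975 knockdown change. With 18E, 467 genes were at least 0.5 higher in both lines and 887 at least 0.5 lower. With knockdown the counts were 646 higher and 485 lower. Of the genes higher with 18E, 95 were also higher with knockdown, which is 20.3% of the 18E list and 14.7% of the knockdown list, whereas 5.64% of all genes were higher with knockdown. Of the genes lower with 18E, 146 were also lower with knockdown, 16.5% of the 18E list and 30.1% of the knockdown list, whereas 4.24% of all genes were lower with knockdown.

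**Figure D1:**
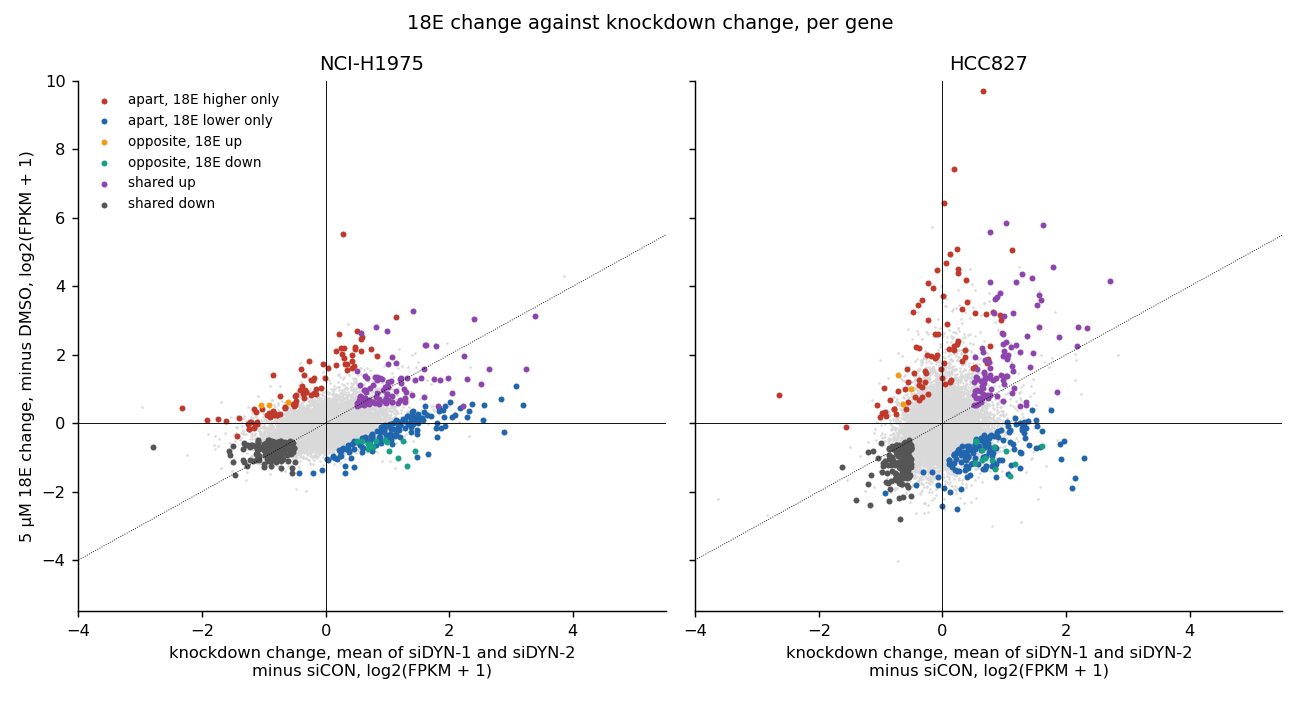
18E change (5 µM minus DMSO, vertical) against knockdown change (mean of siDYN-1 and siDYN-2 minus siCON, horizontal) on the log2(FPKM + 1) scale, 1 point per gene, with NCI-H1975 on the left and HCC827 on the right. Coloured points are the class members, a gene in an apart class and another class is drawn in the other class, and the dotted line marks equal changes. The 18E changes span a wider range in HCC827, where HSPA6 reached 9.71.

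By size, 89 genes (0.777%) were apart with 18E higher, 159 (1.39%) apart with 18E lower, 3 (0.0262%) opposite with 18E up and 14 (0.122%) opposite with 18E down. A further 95 (0.83%) were shared up and 146 (1.28%) shared down. All 17 opposite genes were also apart, and 3 genes (ATF3, UPP1 and DEFB103A) were both shared up and apart with 18E higher. Genes picked in 1 line were then looked up in the other, whose libraries had not picked them. Of 226 genes apart with 18E higher in NCI-H1975, 81.0% had 18E above knockdown in HCC827, against 43.0% of all genes, and of 346 apart with 18E lower, 85.8% were below, against 57.0%. Of 343 genes shared up in NCI-H1975, 71.1% were higher with both agents in HCC827, against 22.6% of all genes, and of 573 shared down, 83.9% were lower with both, against 30.7%. For the opposite genes, of 22 with 18E up in NCI-H1975, 40.9% had the same pair of signs in HCC827 (19.4% of all genes), and of 58 with 18E down, 69.0% did (26.9%). At the edge of the apart classes, HMGCS1 was just inside with differences of 1.002 and 1.121 and GDF15 just outside with 0.999 and 1.134. On the other side TECPR2 was just inside with -1.0 and -1.22 and PODXL2 just outside with -0.999 and -1.619.

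The difference between the 2 changes was also tested, in limma on all 11449 genes and 10 libraries with 4 residual degrees of freedom. No gene passed a Benjamini-Hochberg adjusted p of 0.05 for 18E minus knockdown, higher (0.0%) or lower (0.0%), although 1928 had an unadjusted p under 0.05, and the smallest adjusted p was 0.176. Without the 5 µM 18E or the DMSO library of NCI-H1975, 366 genes were called in either case, in a fit that assumes the lone HCC827 pair to vary like the other groups. In the same fit 100 genes (0.873%) rose and 128 (1.12%) fell with 5 µM 18E, and 9 (0.0786%) rose and 3 (0.0262%) fell with siDYN. These counts depended on the libraries and on the other table: the 18E table fitted alone gave 1 gene for 18E, and the joint fit gave 0 without the HCC827 5 µM or DMSO library, against 1072 without the NCI-H1975 5 µM library and 1080 without its DMSO library. Of the 100 genes that rose with 18E, 40 were apart with 18E higher (0.777% of all genes) and 21 were shared up (0.83%). Of the 128 that fell, 32 were shared down (1.28% of all genes) and 10 were apart with 18E lower (1.39%). Calls and classes come from the same values. "Rose" and "fell" are used below for genes past this threshold and for no others.

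Heat shock genes stood high with 18E, far more so in HCC827 than in NCI-H1975, and near the control level with knockdown. HSPA6, a strictly inducible HSP70 chaperone, reached 104 FPKM with 5 µM 18E in NCI-H1975, against 1.3 FPKM with DMSO, and 1337 FPKM in HCC827, against 0.6 FPKM. With siDYN-1 and siDYN-2 it stood at 4.07 and 2.56 FPKM in NCI-H1975, against 2.49 FPKM with siCON, and at 0.18 and 1.55 FPKM in HCC827, against 0.1 FPKM. The 18E libraries thus stood apart from all others, and HSPA6 rose with 18E (log2 change 7.61, SE 0.8, limma adjusted p = 0.0185). From DMSO through 2.5 to 5 µM its levels were 1.3, 2.07 and 104 FPKM in NCI-H1975. They were 0.6, 44.3 and 1337 FPKM in HCC827, so HSPA6 already stood high there at 2.5 µM.

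HSPA1B, a stress-inducible HSP70 gene, had 377 FPKM with 18E in NCI-H1975, against 86.0 FPKM with DMSO, and 2434 FPKM in HCC827, against 93.4 FPKM. The siDYN libraries held 126.9 and 120.4 FPKM in NCI-H1975, against 110.2 FPKM with siCON, and 73.7 and 104 FPKM in HCC827, against 84.5 FPKM. HSPA1B and its near-identical copy HSPA1A share reads, so the split between them is uncertain. ZFAND2A, a proteasome-associated stress protein, had 337 FPKM with 18E in NCI-H1975, against 55.0 FPKM with DMSO, and 1083 FPKM in HCC827, against 34.1 FPKM. HSPA1B rose with 18E by 3.41 (SE 0.48) and ZFAND2A by 3.77 (SE 0.44) on the log2 scale. ZFAND2A lay between 46.9 and 104 FPKM in the 4 siDYN libraries, with siCON at 77.4 FPKM in NCI-H1975 and 44.5 FPKM in HCC827.

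Of 28 heat shock and chaperone genes under the rule, 23 had 18E above knockdown in both lines (82.1%, against 26.9% of all genes) and 8 were in the apart class: HSPA6, HSPA1A, HSPA1B, ZFAND2A, HSPH1, HSPB1, BAG3 and CHORDC1. The apart class itself was 0.777% of all genes. Of the 28, 6 rose with 18E (0.873% of all genes) and 0 fell (1.12%). With siDYN 0 were called, but only 0.0786% of all genes rose and 0.0262% fell, so this does not set the list apart. The list's median 18E change was 0.37 in NCI-H1975 and 2.01 in HCC827, against -0.07 and -0.11 over all genes, while its median knockdown change was -0.06 and -0.01. BAG3, a co-chaperone of HSP70, had 74.2 FPKM with 18E in NCI-H1975, against 42.7 FPKM with DMSO, and 509 FPKM in HCC827, against 32.1 FPKM. It lay at 29.9 and 31.5 FPKM with the siRNAs in NCI-H1975, against 51.7 FPKM with siCON, and at 19.3 and 18.0 FPKM in HCC827, against 20.9 FPKM. With siDYN-1 alone or siDYN-2 alone, 8 of the list were again apart.

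The promoters of HSPA6 and HSPA1B are shown because they hold the letters that heat shock factors bind. Heat shock elements were searched as GAANNTTC, which reads the same on both strands, in RefSeq promoters from 250 bases before to 50 bases after the gene start. Of 27 heat shock genes with a promoter there, 11 held a match (40.7%), against 4.56% of 9613 promoters of all genes under the rule, and 8 of 76 genes apart with 18E higher did (10.5%). The 220 bases before each start are given in build GRCh38.p14, 5′ to 3′ on the gene's strand, with the matches in capitals. They lie at chr1:161524320-161524539 (plus strand) for HSPA6 and chr6:31827518-31827737 (plus strand) for HSPA1B.
HSPA6: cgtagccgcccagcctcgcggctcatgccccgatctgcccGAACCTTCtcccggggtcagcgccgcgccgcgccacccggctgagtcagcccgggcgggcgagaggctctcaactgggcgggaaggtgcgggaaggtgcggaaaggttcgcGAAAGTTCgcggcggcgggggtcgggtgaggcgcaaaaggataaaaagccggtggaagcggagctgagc
HSPA1B: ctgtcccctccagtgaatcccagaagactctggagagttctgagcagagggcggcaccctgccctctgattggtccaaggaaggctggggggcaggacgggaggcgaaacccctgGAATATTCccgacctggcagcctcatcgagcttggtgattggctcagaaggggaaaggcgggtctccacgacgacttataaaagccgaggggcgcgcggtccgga
HSPA6 held 2 matches, whose first bases lie 180 and 69 bases before the start, and HSPA1B held 1, at 105 bases. ZFAND2A and BAG3 held no match in their windows. A match is a description of the letters, not of a site in use.

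ER chaperones made up a smaller group apart with 18E higher. HSPA5, the main HSP70 of the ER, had 996.5 FPKM with 18E in NCI-H1975, against 173 FPKM with DMSO, and 1345 FPKM in HCC827, against 394 FPKM. With the siRNAs it had 236 and 216 FPKM in NCI-H1975, against 149 FPKM with siCON, and 246 and 244 FPKM in HCC827, against 241 FPKM. It rose with 18E in limma's fit (2.14, SE 0.22, adjusted p = 0.0185), and DNAJB9 and HERPUD1 rose as well, by 1.97 and 2.67. DNAJB9 is a co-chaperone of HSPA5 and HERPUD1 acts in ER-associated degradation. These 3 of 27 unfolded protein response genes were apart (0.777% of all genes), and 4 rose with 18E (0.873%), the fourth being the factor XBP1 (1.05, adjusted p = 0.0413). The list as a whole did not follow them, since its median 18E change was 0.53 in NCI-H1975 and -0.16 in HCC827. Proteasome subunits showed a small shift, with 22 of 31 above knockdown in both lines (71.0%, against 26.9% of all genes) and 0 in any class.

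Among other genes apart with 18E higher, 3 encode signals or rapid responses. HBEGF, an EGFR ligand, had 14.4 FPKM with 18E in NCI-H1975, against 2.32 FPKM with DMSO, and 86.1 FPKM in HCC827, against 1.56 FPKM. In the siDYN libraries it lay between 0.67 and 3.86 FPKM. It rose with 18E by 3.65 (SE 0.56, adjusted p = 0.0323). FOS, an AP-1 subunit, had 15.6 FPKM with 18E in NCI-H1975, against 4.04 FPKM with DMSO, and 98.3 FPKM in HCC827, against 3.71 FPKM, and rose by 3.06. With siDYN-1 and siDYN-2 it had 1.48 and 4.38 FPKM in NCI-H1975, against 1.95 FPKM with siCON. In HCC827 it had 1.97 and 3.23 FPKM, against 1.97 FPKM, so siDYN-2 was above siCON in both lines. Of 27 immediate early and AP-1 genes 3 were apart with 18E higher (0.777% of all genes), and 1 with siDYN-2 alone. NR1D1, a nuclear receptor of the circadian clock, had 8.62 FPKM with 18E in NCI-H1975, against 2.22 FPKM with DMSO, and 95.2 FPKM in HCC827, against 4.57 FPKM, and rose by 2.84. For all 3 the HCC827 value with 18E stood farthest from its control.

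Of 14 autophagy receptor genes 1 was apart with 18E higher (0.777% of all genes) and 1 shared down (1.28%). By sign, 9 of the 14 had 18E above knockdown in both lines (64.3%, against 26.9% of all genes). A further 2 had 18E below knockdown in both lines (14.3%, against 39.6%). SQSTM1, the cargo receptor p62, had 549 FPKM with 18E in NCI-H1975, against 171 FPKM with DMSO, and 1087 FPKM in HCC827, against 121 FPKM. In the siDYN-1 and siDYN-2 libraries it had 384 and 417 FPKM in NCI-H1975, against 290 FPKM with siCON, and 245 and 290 FPKM in HCC827, against 139 FPKM. It was higher in every treated library, and rose with 18E by 2.42 (SE 0.31, adjusted p = 0.0312), while the siDYN term of 0.7 had an adjusted p of 0.169. GABARAPL1, an ATG8 protein of the autophagosome, had 18.8 FPKM with 18E in NCI-H1975, against 4.61 FPKM with DMSO, and 175 FPKM in HCC827, against 12.4 FPKM, and rose by 2.77. Of the 36 autophagosome genes in the list used, 1 was in an apart class, GABARAPL1, and 1 was shared up, WDR45, which acts in autophagosome formation. The receptor shared down was BNIP3L, which acts in mitophagy, with changes of -0.58 with 18E and -0.94 with knockdown in NCI-H1975, and of -0.63 with 18E and -0.76 with knockdown for HCC827. MAP1LC3B2, an LC3 gene outside the list with a near-identical relative, was shared up and rose with 18E by 2.21 (SE 0.4, adjusted p = 0.0459).

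The class apart with 18E higher was mostly made by 18E. Of its 89 genes, 59 were at least 0.5 higher with 18E in both lines, 19 were at least 0.5 lower with knockdown in both lines, and 52 stayed at least 1 apart with each siRNA taken alone. TAF9B, a TFIID-type transcription cofactor, was the other gene besides DYNC1LI1 in the class to fall with siDYN. It had 4.0 and 5.53 FPKM with siDYN-1 and siDYN-2 in NCI-H1975, against 12.4 FPKM with siCON, and 6.54 and 5.44 FPKM in HCC827, against 19.5 FPKM (siDYN term -1.39, SE 0.18, adjusted p = 0.0462), with no such difference under 18E.

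**Figure D2:**
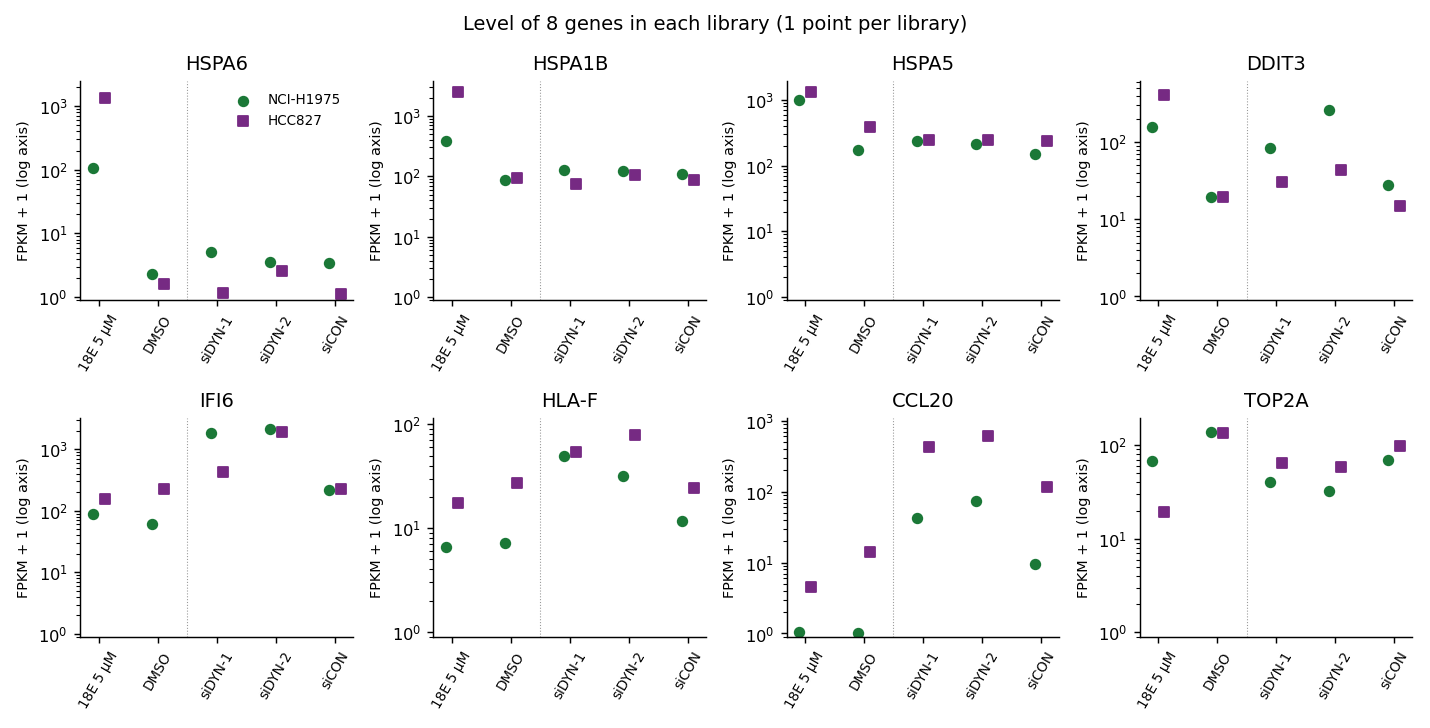
FPKM + 1 on a log axis of 8 genes in the 10 libraries, with 18E left of DMSO and the siRNAs left of siCON, circles for NCI-H1975 and squares for HCC827. HSPA6, HSPA1B and HSPA5 stand highest in the 18E libraries, IFI6, HLA-F and CCL20 in siDYN libraries, DDIT3 is above its control in all treated libraries and TOP2A below it in all of them.

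The class apart with 18E lower was made mostly by the knockdown in NCI-H1975, and somewhat more by 18E in HCC827. Its median knockdown change was 1.02 and its median 18E change -0.34 in NCI-H1975, against 0.68 and -0.85 in HCC827. Interferon-stimulated genes were among its members. Of its 159 genes, 98 were at least 0.5 higher with knockdown in both lines and 54 at least 0.5 lower with 18E in both lines, and 74 stayed at least 1 apart with each siRNA taken alone. IFI6, an interferon-induced membrane protein, had 86.8 FPKM with 18E in NCI-H1975, against 60.3 FPKM with DMSO, and 156 FPKM in HCC827, against 225 FPKM. With siDYN-1 and siDYN-2 it had 1826 and 2083 FPKM in NCI-H1975, against 213 FPKM with siCON, and 421 and 1895 FPKM in HCC827, against 227 FPKM. All 4 siDYN libraries lay above their control, the HCC827 siDYN-1 library by least. The siDYN term was 2.58 (SE 0.54) with an adjusted p of 0.0848, so the gene was not called.

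Of 39 interferon-stimulated genes, 34 had 18E below knockdown in both lines (87.2%, against 39.6% of all genes) and 17 were apart with 18E lower (1.39% of all genes). A further 3 were shared up (0.83% of all genes), and 0 without the HCC827 siDYN-2 library. No gene of the list was called with 18E (0.873% of all genes rose and 1.12% fell). None was called with siDYN either (0.0786% and 0.0262%). The median knockdown change was 1.37 in NCI-H1975 and 0.66 in HCC827, and the median 18E change was 0.21 and -0.49. The HCC827 figure rested on siDYN-2. The median was -0.27 with siDYN-1 and 1.32 with siDYN-2 there, against 1.5 and 1.19 in NCI-H1975, and 11 of the 39 genes were above siCON with siDYN-1 in HCC827, against 38 with siDYN-2. Without the HCC827 siDYN-2 library, 6 of the list were apart. The 18E side also changed with dose in HCC827, where the list's median was 0.59 at 2.5 µM and -0.49 at 5 µM; IFI6 itself had 225, 479 and 156 FPKM from DMSO through 2.5 to 5 µM.

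Antigen presentation genes stood high with both siRNAs in both lines. Of 19 such genes, 18 had 18E below knockdown in both lines (94.7%, against 39.6% of all genes). The 9 apart with 18E lower (1.39% of all genes) were HLA-DRA, HLA-F, HLA-B, HLA-DMB, B2M, CD74, TAP1, PSMB8 and PSMB9. The median changes of the list were 1.04 with siDYN-1 and 0.91 with siDYN-2 in NCI-H1975, and 0.75 and 1.29 for HCC827, whereas with 18E they were 0.0 and -0.81. HLA-F, a class I molecule, had 5.52 FPKM with 18E in NCI-H1975, against 6.13 FPKM with DMSO, and 16.6 FPKM in HCC827, against 26.4 FPKM. Its siDYN-1 and siDYN-2 levels were 48.7 and 31.1 FPKM in NCI-H1975, against 10.7 FPKM with siCON, and 52.6 and 77.6 FPKM in HCC827, against 23.5 FPKM. HLA genes share sequence, so reads may be split between them. PSMB9, an immunoproteasome subunit, had 25.7 FPKM with 18E in NCI-H1975, against 32.3 FPKM with DMSO, and 18.0 FPKM in HCC827, against 39.4 FPKM. After knockdown it stood at 183 and 184 FPKM in NCI-H1975, against 64.8 FPKM with siCON, and 82.2 and 139 FPKM in HCC827, against 56.2 FPKM. In both genes every siDYN library lay above its control and every 18E library below, though the siDYN terms of 1.59 and 1.2 had limma adjusted p-values of 0.0627 and 0.0848.

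Promoters of IFI6 and IFITM1 are shown for the letters that interferon-regulated factors bind, searched as GAAANNGAA on both strands. Of 32 interferon-stimulated genes with a promoter, 20 held a match (62.5%), against 6.46% of all 9613 promoters, and 20 of 129 genes apart with 18E lower did (15.5%). The windows are chr1:27672193-27672412 (minus strand) for IFI6 and chr11:313820-314039 (plus strand) for IFITM1 in GRCh38.p14, from RefSeq, with matches in capitals.
IFI6: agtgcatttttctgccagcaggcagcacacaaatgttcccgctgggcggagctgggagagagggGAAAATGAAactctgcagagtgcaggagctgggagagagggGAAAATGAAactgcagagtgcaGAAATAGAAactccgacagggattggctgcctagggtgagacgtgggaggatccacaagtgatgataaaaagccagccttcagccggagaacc
IFITM1: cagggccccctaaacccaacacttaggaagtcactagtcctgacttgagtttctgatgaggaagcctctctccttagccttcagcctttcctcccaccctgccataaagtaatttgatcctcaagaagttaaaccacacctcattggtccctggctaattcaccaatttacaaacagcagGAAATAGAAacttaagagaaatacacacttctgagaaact
IFI6 held 3 matches and IFITM1 held 1, whose first base lies 40 bases before the start. PSMB9 held no match in its window.

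Chemokines and a mucin were also apart with 18E lower. CCL20, which attracts cells through CCR6, had 0.06 FPKM with 18E in NCI-H1975 and was listed at 0 with DMSO, and it had 3.55 FPKM in HCC827, against 12.9 FPKM. With the siRNAs it had 41.1 and 72.3 FPKM in NCI-H1975, against 8.56 FPKM with siCON, and 425 and 614 FPKM in HCC827, against 115 FPKM. The siCON libraries were thus already above the DMSO libraries, in tables that were scaled separately, and in NCI-H1975 a gene listed at 0 could not have been lower. Of 30 NF-kB targets and cytokines, 6 were apart with 18E lower (CCL20, CXCL1, CXCL2, CXCL8, SOD2 and SAA2), against 1.39% of all genes. A further 1 was apart with 18E higher (TRAF1), against 0.777%, and 3 were shared up (IL6, IL11 and TNFAIP3), against 0.83%, so the list did not move as a unit. Without the HCC827 siDYN-2 library 3 of the list were apart with 18E lower. MUC1, an epithelial mucin, had 1.63 FPKM with 18E in NCI-H1975, against 3.94 FPKM with DMSO, and 12.7 FPKM in HCC827, against 76.7 FPKM. In the siDYN-1 and siDYN-2 libraries it had 8.42 and 6.62 FPKM in NCI-H1975, against 1.69 FPKM with siCON, and 53.8 and 60.6 FPKM in HCC827, against 48.4 FPKM. Both lines were lower with 18E and higher with both siRNAs, though the HCC827 siRNA libraries were close to siCON.

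Of the 9 genes that rose with siDYN, 6 were apart with 18E lower (1.39% of all genes), though the call and the class come from the same values. EMC6, a subunit of the ER membrane complex, had 127 and 146 FPKM with siDYN-1 and siDYN-2 in NCI-H1975, against 47.8 FPKM with siCON, and 218 and 206 FPKM in HCC827, against 83.3 FPKM. With 18E it had 86.7 FPKM in NCI-H1975, against 74.3 FPKM with DMSO, and 67.1 FPKM in HCC827, against 90.4 FPKM. All 4 siDYN libraries stood above their control, while the 18E libraries lay on either side of DMSO. The siDYN term was 1.41 (SE 0.16, limma adjusted p = 0.0412) and the 18E term -0.1 (adjusted p = 0.761). TPM4, a tropomyosin, had a siDYN term of 1.21 (adjusted p = 0.0462) and an 18E term of -0.05 (adjusted p = 0.879). Mitochondrial ribosomal and respiratory chain genes had a small shift in this direction. Of 37, 29 were below knockdown in both lines (78.4%, against 39.6% of all genes) and 0 were in any class. The list's median knockdown change was 0.33 in NCI-H1975 and 0.24 in HCC827, and all genes with transcripts under 1500 bases had 0.33 and 0.23. With 18E the medians were 0.07 and -0.27 for the list and 0.19 and -0.05 for the short transcripts. The part of transcript length in this shift was not tested.

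The opposite genes were few, and none passed the test of the difference. The 3 with 18E up were UGDH, which makes UDP-glucuronate, RRAS2, a RAS-family GTPase, and WBP2, a WW-domain binding protein. UGDH had 47.2 FPKM with 18E in NCI-H1975, against 30.4 FPKM with DMSO, and 144.5 FPKM in HCC827, against 97.3 FPKM. It had 19.0 and 20.8 FPKM with the siRNAs in NCI-H1975, against 30.9 FPKM with siCON, and 36.7 and 47.6 FPKM in HCC827, against 66.0 FPKM. Every treated library was on the stated side of its control, with an 18E term of 0.59 (adjusted p = 0.0914) and a siDYN term of -0.63 (adjusted p = 0.0913). With libraries scaled to equal totals, 0 genes were in the class.

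The 14 with 18E down were led by IFITM1, an interferon-induced restriction factor, and included H2AJ, a replacement histone made outside S phase. IFITM1 had 103 FPKM with 18E in NCI-H1975, against 211 FPKM with DMSO, and 2.93 FPKM in HCC827, against 10.4 FPKM. With siDYN-1 and siDYN-2 it had 898 and 590 FPKM in NCI-H1975, against 322 FPKM with siCON, and 8.78 and 73.4 FPKM in HCC827, against 11.7 FPKM. The HCC827 siDYN-1 library was below siCON, so the knockdown side of IFITM1 rested on siDYN-2 there. H2AJ had 80.0 FPKM with 18E in NCI-H1975, against 141 FPKM with DMSO, and 62.6 FPKM in HCC827, against 101 FPKM. Its siDYN-1 and siDYN-2 levels were 300.2 and 437 FPKM in NCI-H1975, against 132 FPKM with siCON, and 235 and 406 FPKM in HCC827, against 101 FPKM. Here all 4 siDYN libraries were above siCON and both 18E libraries below DMSO, with a siDYN term of 1.53 (adjusted p = 0.0627) and an 18E term of -0.75 (adjusted p = 0.134). Others were SMIM27, TMEM175 (a lysosomal ion channel), CTXN1, ZER1, GANAB (the catalytic subunit of ER glucosidase II), CLBA1, ELFN2, IFT27 (an intraflagellar transport GTPase), TNFRSF14, RABL6 and SERPINA3 (antichymotrypsin). At 2.5 µM 18E all 14 were below DMSO in NCI-H1975, and 6 were above it in HCC827, with the same DMSO library in both comparisons.

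**Figure D3:**
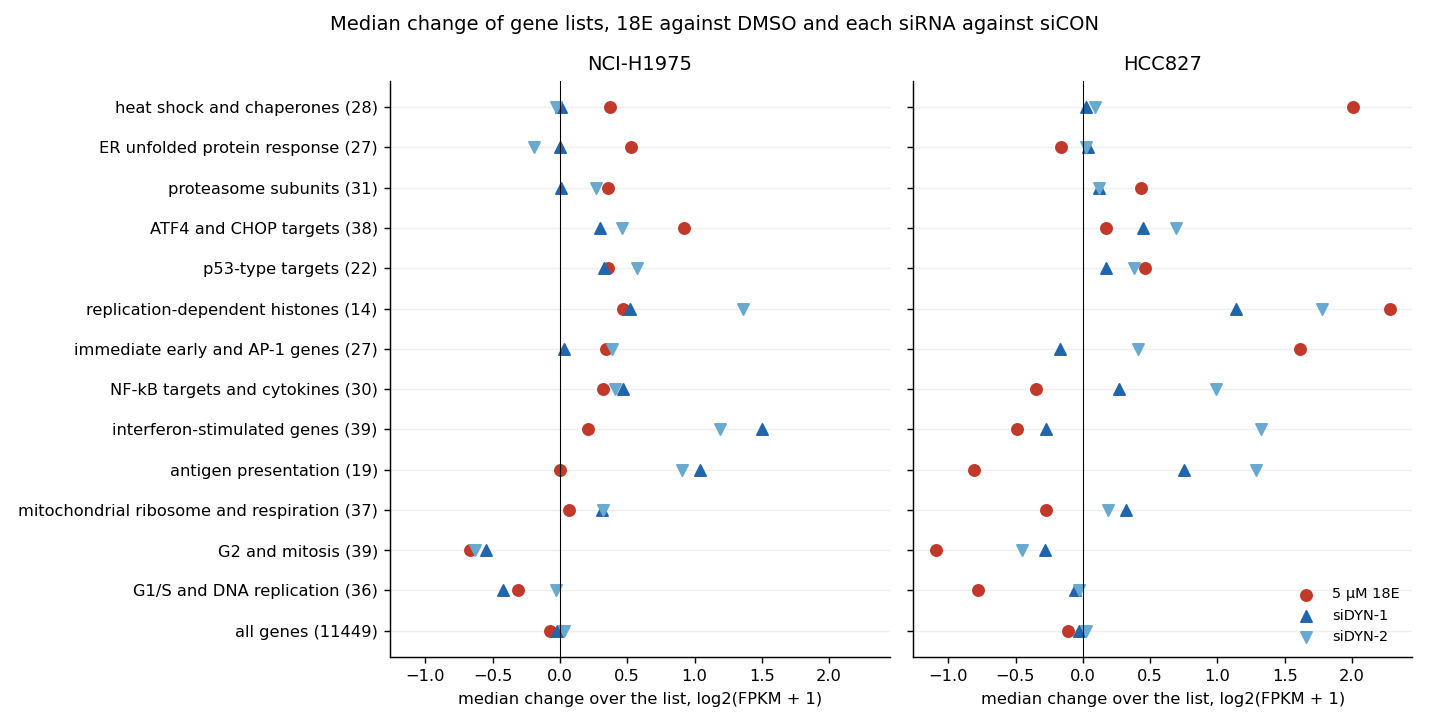
Median change on the log2(FPKM + 1) scale of 13 gene lists and of all genes (number of genes in brackets), for 5 µM 18E against DMSO, siDYN-1 against siCON and siDYN-2 against siCON, in NCI-H1975 (left) and HCC827 (right). Heat shock genes lie to the right with 18E and near 0 with the siRNAs, antigen presentation genes to the right with the siRNAs, and G2 and mitosis genes to the left with all 3.

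Integrated stress response genes were among those shared up. DDIT3, which encodes the transcription factor CHOP, had 156 FPKM with 18E in NCI-H1975, against 18.2 FPKM with DMSO, and 402 FPKM in HCC827, against 18.7 FPKM. With siDYN-1 and siDYN-2 it had 83.4 and 259 FPKM in NCI-H1975, against 27.1 FPKM with siCON, and 29.1 and 41.9 FPKM in HCC827, against 13.7 FPKM. All 6 treated libraries were above their controls. DDIT3 rose with 18E (3.69, SE 0.54, adjusted p = 0.0323), and its siDYN term of 1.84 (SE 0.47) had an adjusted p of 0.0963.

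Of 38 ATF4 and CHOP targets, 7 were shared up, against 0.83% of all genes: DDIT3, ATF3, PPP1R15A, CHAC1, CEBPB, TRIB3 and UPP1. A further 5 were apart with 18E higher, of which ATF3 and UPP1 were in both classes and the others were ASNS, SESN2 and CTH. The apart count was 2 without the HCC827 siDYN-1 library and 3 with siDYN-2 alone. With 18E 11 of the 38 rose and 0 fell (0.873% and 1.12% of all genes). None was called with siDYN (0.0786% of all genes rose and 0.0262% fell). The list's median change was 0.92 with 18E and 0.49 with knockdown in NCI-H1975, and 0.17 and 0.46 for HCC827. PPP1R15A, the phosphatase subunit that reverses eIF2 phosphorylation, had 61.1 FPKM with 18E in NCI-H1975, against 17.2 FPKM with DMSO, and 285 FPKM in HCC827, against 29.6 FPKM. After knockdown it stood at 29.5 and 66.3 FPKM in NCI-H1975, against 19.5 FPKM with siCON, and 33.0 and 64.3 FPKM in HCC827, against 20.4 FPKM. CHAC1, which degrades glutathione, had 11.2 FPKM with 18E in NCI-H1975, against 1.55 FPKM with DMSO, and 24.9 FPKM in HCC827, against 9.83 FPKM. With the siRNAs it had 5.63 and 16.7 FPKM in NCI-H1975, against 2.13 FPKM with siCON, and 7.2 and 10.1 FPKM in HCC827, against 3.81 FPKM. Both were above their control in every treated library, siDYN-2 more than siDYN-1. With either siRNA alone 8 and 10 members of the list were shared up.

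The promoter of CHAC1 is shown for the C/EBP-ATF element that ATF4 and CHOP bind with a partner, searched as TGATGNAA on both strands. Of 30 targets with a promoter, 5 held a match (16.7%), against 1.58% of all promoters, and 3 of 82 genes shared up did (3.66%). The window is chr15:40953251-40953470 (plus strand) in GRCh38.p14, from RefSeq, and the match, on the other strand, is in capitals, with its first base 209 bases before the start.
CHAC1: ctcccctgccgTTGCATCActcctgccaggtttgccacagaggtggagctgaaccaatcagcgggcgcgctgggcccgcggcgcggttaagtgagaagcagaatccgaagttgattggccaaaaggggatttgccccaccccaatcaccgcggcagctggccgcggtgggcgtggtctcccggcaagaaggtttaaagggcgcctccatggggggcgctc
DDIT3 held no match in its window.

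Other genes shared up included growth arrest genes, secreted factors and histones. CDKN1A, the CDK inhibitor p21, had 51.7 FPKM with 18E in NCI-H1975, against 14.9 FPKM with DMSO, and 97.2 FPKM in HCC827, against 7.05 FPKM. In the siDYN-1 and siDYN-2 libraries it had 94.0 and 67.4 FPKM in NCI-H1975, against 39.2 FPKM with siCON, and 29.2 and 36.5 FPKM in HCC827, against 10.2 FPKM. It rose with 18E by 2.67 (SE 0.4, adjusted p = 0.0323), and its siDYN term was 1.3 (adjusted p = 0.102). Of 22 p53-type targets 3 were shared up (0.83% of all genes), the others being BBC3 and AEN, and 1 was apart with 18E higher, SESN2 (0.777%). With 18E 5 of the 22 rose (0.873%), among them CDKN1A, SESN2 and AEN. IL6, a cytokine, had 9.35 FPKM with 18E in NCI-H1975, against 3.18 FPKM with DMSO, and 38.6 FPKM in HCC827, against 1.11 FPKM. Its siDYN-1 and siDYN-2 levels were 18.9 and 31.2 FPKM in NCI-H1975, against 5.43 FPKM with siCON, and 4.14 and 38.7 FPKM in HCC827, against 4.23 FPKM, so the HCC827 siDYN-1 library lay at the control. CLU, a secreted chaperone, had 22.7 FPKM with 18E in NCI-H1975, against 8.52 FPKM with DMSO, and 230.3 FPKM in HCC827, against 3.2 FPKM; its siDYN levels were 33.4 and 45.7 FPKM in NCI-H1975, against 15.1 FPKM with siCON, and 5.99 and 24.7 FPKM in HCC827, against 3.32 FPKM.

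Of 14 histone genes 4 were shared up (0.83% of all genes), H2AC18, H2BC5, H2BC8 and H2BC12. A further 2 were apart with 18E higher (0.777%), H4C3 and H4C8, which rose with 18E by 2.87 and 2.74, and 1 was both apart with 18E lower (1.39%) and opposite (0.122%). The median change of the list was 0.47 with 18E and 0.87 with knockdown in NCI-H1975, and 2.28 and 1.52 for HCC827. H2AC18 had 123 FPKM with 18E in NCI-H1975, against 49.7 FPKM with DMSO, and 182 FPKM in HCC827, against 9.17 FPKM. After knockdown it stood at 125 and 360 FPKM in NCI-H1975, against 62.1 FPKM with siCON, and 48.3 and 161 FPKM in HCC827, against 12.6 FPKM. Histone genes have near-identical copies, so the assignment of reads to each is uncertain. The class as a whole leaned on siDYN-2: the 95 genes had a median change of 0.77 with siDYN-1 and 1.16 with siDYN-2 in NCI-H1975, and of 0.46 and 1.33 for HCC827. With siDYN-1 alone 47 genes were shared up, and with siDYN-2 alone 158. At 2.5 µM 18E, 94 of the 95 were above DMSO in NCI-H1975 and 91 in HCC827, in comparisons that share the DMSO library with the 5 µM change.

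Mitotic genes were among those shared down. TOP2A, the topoisomerase that untangles replicated DNA, had 66.1 FPKM with 18E in NCI-H1975, against 136 FPKM with DMSO, and 18.1 FPKM in HCC827, against 133 FPKM. With siDYN-1 and siDYN-2 it had 39.9 and 31.6 FPKM in NCI-H1975, against 68.9 FPKM with siCON, and 63.8 and 57.4 FPKM in HCC827, against 97.8 FPKM. Every treated library was below its control. TOP2A fell with 18E by 1.92 (SE 0.35, adjusted p = 0.0459), and its siDYN term was -0.81 (adjusted p = 0.164). CENPF, a kinetochore protein that binds dynein regulators, had 11.4 FPKM with 18E in NCI-H1975, against 28.8 FPKM with DMSO, and 3.3 FPKM in HCC827, against 15.2 FPKM. With the siRNAs it had 4.24 and 3.12 FPKM in NCI-H1975, against 10.2 FPKM with siCON, and 4.14 and 3.96 FPKM in HCC827, against 8.06 FPKM. It fell with 18E by 1.59 (adjusted p = 0.0323), with a siDYN term of -1.06 (adjusted p = 0.0813).

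Of 39 G2 and mitosis genes, 38 were lower with 18E in both lines (97.4%, against 41.0% of all genes) and 34 were lower with knockdown in both lines (87.2%, against 38.3%). The 10 shared down (1.28% of all genes) were TOP2A, CENPF, CENPE, ANLN, ASPM, AURKA, DLGAP5, ECT2, KIF11 and KIF23. With 18E 10 of the 39 fell (1.12% of all genes). None was called with siDYN (0.0786% of all genes rose and 0.0262% fell). The median change was -0.67 with 18E and -0.58 with knockdown in NCI-H1975, and -1.09 and -0.37 for HCC827. In these bulk libraries fewer dividing cells and less of these RNAs per cell cannot be told apart. G1/S and DNA replication genes were less alike in the 2 responses. Their medians were -0.31 with 18E and -0.22 with knockdown in NCI-H1975, and -0.78 with 18E and -0.07 with knockdown for HCC827. Of these 36 genes 1 was shared down (1.28% of all genes), POLA1, a subunit of DNA polymerase alpha, 1 was apart with 18E lower (1.39%), the transcription factor E2F2, and 1 was shared up (0.83%), CCNE1, which encodes cyclin E1 and rose with 18E by 1.26 (adjusted p = 0.0413).

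The promoter of TOP2A is shown for its CCAAT boxes, which the factor NF-Y binds in many mitotic genes. CCAAT was searched on both strands, and 26 of 33 G2 and mitosis promoters held it (78.8%), against 36.9% of all promoters. Among genes shared down 41 of 126 did (32.5%). The cell cycle homology region, searched as TTTGAA or TTCGAA on both strands, was in 23 of the 33 (69.7%) and in 31 of the 126 (24.6%), against 11.0% of all promoters. The window is chr17:40417897-40418116 (minus strand) in GRCh38.p14, from RefSeq, with the CCAAT boxes, all on the other strand, in capitals.
TOP2A: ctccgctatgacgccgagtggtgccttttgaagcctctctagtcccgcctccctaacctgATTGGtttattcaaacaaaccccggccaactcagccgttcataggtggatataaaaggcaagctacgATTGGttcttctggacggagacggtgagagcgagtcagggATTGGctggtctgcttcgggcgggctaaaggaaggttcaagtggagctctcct
The 3 boxes begin 160, 93 and 53 bases before the start.

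NRP1, a co-receptor of VEGF and semaphorins, had 9.86 FPKM with 18E in NCI-H1975, against 25.4 FPKM with DMSO, and 11.1 FPKM in HCC827, against 56.8 FPKM. In the siDYN-1 and siDYN-2 libraries it had 5.21 and 7.47 FPKM in NCI-H1975, against 13.5 FPKM with siCON, and 7.67 and 14.9 FPKM in HCC827, against 30.0 FPKM. It fell with 18E by 1.77 (SE 0.34, adjusted p = 0.047). MET, the receptor of hepatocyte growth factor, had 55.2 FPKM with 18E in NCI-H1975, against 87.2 FPKM with DMSO, and 73.0 FPKM in HCC827, against 234 FPKM. Its siDYN-1 and siDYN-2 levels were 20.9 and 12.4 FPKM in NCI-H1975, against 41.0 FPKM with siCON, and 63.0 and 56.8 FPKM in HCC827, against 96.5 FPKM. SCD, the stearoyl-CoA desaturase, was lower in every treated library but by different amounts, with changes of -0.7 with 18E and -2.79 with knockdown in NCI-H1975, and -2.39 and -1.17 for HCC827. SNN, which ranked high in the class by its mean, had siRNAs on opposite sides, at 16.3 and 2.06 FPKM with siDYN-1 and siDYN-2 in NCI-H1975, against 13.3 FPKM with siCON, and at 16.6 and 2.19 FPKM in HCC827, against 14.4 FPKM. A mean over the siRNAs therefore does not describe SNN.

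**Figure D4:**
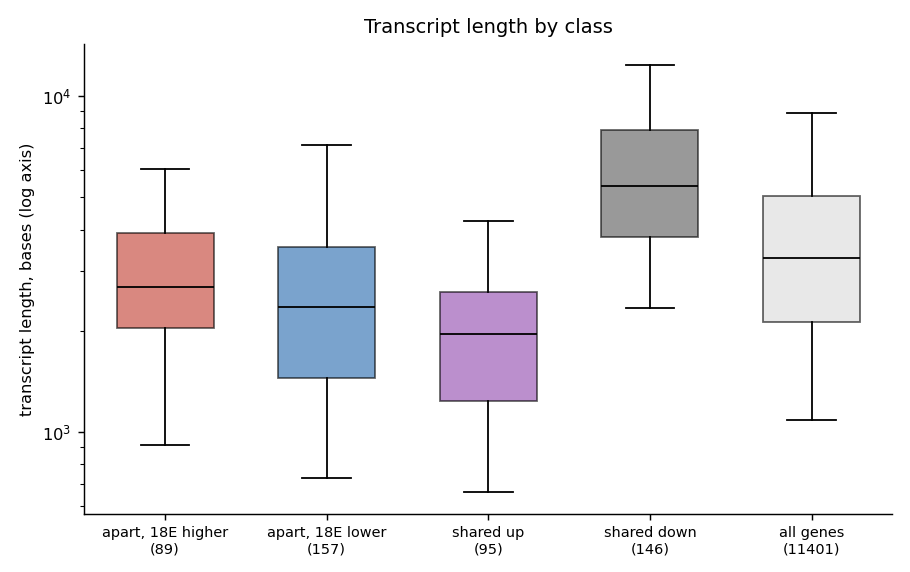
Length of the longest protein-coding transcript of each gene in bases (log axis) by class, with the number of genes below. Boxes span the quartiles with the median as a line, and whiskers reach the 5th and 95th percentiles; genes shared down lie above all genes, and genes shared up below.

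The shared classes also differed in transcript length, a property the rule did not use. The median length was 5401 bases for genes shared down and 1956 bases for genes shared up, against 3300 bases for all genes, with GC contents of 42.7%, 56.4% and 48.8%. Of genes shared down 40.4% were over 6000 bases and 0 of 146 under 1500 bases, while of all genes 16.6% and 11.4% were. The changes themselves followed length over 11401 genes, with Spearman's rho of -0.4 for the 18E change and -0.41 for the knockdown change in NCI-H1975, and of -0.13 and -0.35 for HCC827. With the trend in length and GC content taken out of each treated library, an alternative chosen after this was seen, 75 genes were shared down, 52 of them among the 146, and 69 were shared up, 51 among the 95. The G2 and mitosis genes shared down then numbered 4 in place of 10, while the ATF4 and CHOP targets shared up numbered 8 in place of 7. The apart classes then held 73 genes with 18E higher, 63 of them among the 89, and 122 with 18E lower, 109 among the 159. In these classes 7 heat shock genes were counted in place of 8, 19 interferon-stimulated genes in place of 17, and 9 antigen presentation genes as before. Median GC content was 44.8% for genes apart with 18E higher and 55.6% for those with 18E lower. Spearman's rho of the knockdown change with GC content was 0.39 in NCI-H1975 and 0.44 in HCC827. For the 18E change it was 0.11 and -0.07. RNA quality was not measured in these tables, and the part of length and GC content in the shared and apart classes was not tested.

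The lines differed in size of response. Taken alone, HCC827 had 835 genes apart with 18E higher and 1086 with 18E lower, and NCI-H1975 had 226 and 346. DNAJB1, an HSP40 co-chaperone, had 1021 FPKM with 18E in HCC827, against 86.3 FPKM with DMSO, and 149.9 FPKM in NCI-H1975, against 92.5 FPKM. SNAI1, a repressor of epithelial genes, had 386 FPKM with 18E in HCC827, against 3.47 FPKM with DMSO, and 31.8 FPKM in NCI-H1975, against 9.8 FPKM. Both stood higher with 18E in HCC827 than anywhere else. Yet no gene passed limma's test of a line difference in 18E minus knockdown, where 518 had an unadjusted p under 0.05 and the smallest adjusted p was 0.996, with 2 residual degrees of freedom.

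The libraries had FPKM totals of 486409 to 685680 and 534 to 2212 genes listed at 0, the fewest of these in HCC827 with 5 µM 18E, and read depth is unknown. Epithelial markers were mostly high, with EPCAM, KRT7, KRT8, KRT18 and KRT19 at 217 FPKM or more in every library, but RAB25 went down to 0.22 FPKM and CLDN1 to 0.19 FPKM. Of 22 epithelial and junction genes 2 were shared down (1.28% of all genes), CDH1, which encodes E-cadherin, and the splicing factor ESRP1, and 2 fell with 18E (1.12%), ESRP1 and the transcription factor GRHL2. Lung lineage markers were uneven: SFTPA1, SFTPC and SFTPD were at 0.23 FPKM or less, SFTPB reached 2.35 FPKM and NAPSA ranged from 0.94 to 278 FPKM. NKX2-1, the lung lineage factor, had 15.8 FPKM with 18E in NCI-H1975, against 44.7 FPKM with DMSO, and 7.14 FPKM in HCC827, against 32.3 FPKM. With siDYN-1 and siDYN-2 it had 25.1 and 20.2 FPKM in NCI-H1975, against 30.8 FPKM with siCON. In HCC827 it had 13.4 and 9.77 FPKM, against 22.9 FPKM, so it was lower in every treated library. NKX2-1 fell with 18E by 1.74 (SE 0.24, adjusted p = 0.0323). It was apart with 18E lower by differences of -1.01 in NCI-H1975 and -1.1 in HCC827, close to the threshold. Of 17 markers of blood, endothelium and stroma, 12 or 13 were under 1 FPKM in each group, and their summed level, mostly CD68, was 62.0 to 178 FPKM with 5 µM 18E, 49.5 to 113 FPKM with DMSO, 56.3 to 115 FPKM with the siRNAs and 70.4 to 75.8 FPKM with siCON. Agent, treatment time and table differ together between the 2 experiments, so their parts in any difference between the 18E and knockdown changes cannot be told apart.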

How the data were processed

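RNA was measured in 12 libraries of 2 lines, 1 per line and treatment, so lines and siRNAs stand as replicates; nothing says that they came from separate cultures, and p-values measure only the spread between these samples. The authors deposited FPKM in 2 tables, one for 18E (16800 lines, 16760 complete) and one for the siRNAs (17462 lines, 17442 complete), and normalized them separately as far as the file headers show. The submitters' processing notes name Bowtie 0.12.2 and the builds GRCh38.p12 and mm8 with no role; the quantifier is not given in the sources used here. Low FPKM showed no whole-read steps, so counts were not recovered and read depth is unknown. Near-identical genes could have been split by the authors' counting.

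From log2(FPKM + 1), limma 3.58.1 in R 4.3.3 was fitted to 10 libraries with an intercept per line and table, an 18E term and a siDYN term, a variance trend and Benjamini-Hochberg adjustment over 11449 genes. The intercepts are the line block: same-numbered samples are the same cell line, so the numbers pair the samples. The fit was tested on simulated data. Every adjusted p in the text is from limma. Lists were described by counts and medians, without a test. Lengths and GC content are those of the longest protein-coding GENCODE 29 transcript. Alternatives changed the pseudocount (0.1), the filter, the scaling, the siRNA, the block, the variance trend and the libraries.

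The members, lists and tests were chosen with earlier results of these data known. Named genes were the 10 largest of each class, up to 3 class members of each list, DYNC1LI1, DYNC1LI2 and the 5 per direction with the smallest p of a line difference. BAG3, CHAC1, EMC6, TAF9B, TOP2A, TPM4, XBP1, MAP1LC3B2, RAB25 and CLDN1, and members listed to complete a count, were chosen after their values were seen. The values of some genes are not reported here.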

Additional observations from a re-analysis of the deposited data

Results flagged for a closer look

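In 8 gene lists the median of 18E minus each siRNA lay on opposite sides of 0 in the 2 lines. The differences between lines were not tested, and values are HCC827 minus NCI-H1975 on the log2(FPKM + 1) scale. Fatty acid synthesis genes differed by -0.99: 18E lay 0.36 above siDYN-1 and 0.82 above siDYN-2 in NCI-H1975, with medians of -0.52 and -0.37 for HCC827. Cholesterol synthesis genes differed by -0.95, epithelial markers and junctions by -0.62, aminoacyl-tRNA synthetases by -0.6, hypoxia and glycolysis genes by -0.43, integrins, laminins and matrix genes by -0.41 and apoptosis regulators by -0.35. Tubulins differed by 0.53, the other way.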

How the results depend on the processing

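No replicate block (line intercepts dropped) gave 0 genes for 18E and 0 for siDYN, against 228 and 12. For 18E, other counts were 0 with no filter, 508 at equal FPKM totals, 126 under quantile normalization, 89 with the length and GC trend removed (chosen after seeing the data), 734 with 12 libraries, 1 with siDYN-1 only, 58 with siDYN-2 only and 1 in its own table. For siDYN they were 0, 4, 6, 0, 397, 0 and 161 in the same order, and 0 in its own table. The difference of 18E and knockdown gave 2 genes with siDYN-2 only. Leaving out 1 library gave 0 to 1080 genes for 18E, 0 to 133 for siDYN and 0 to 366 for the difference. With a pseudocount of 0.1, the classes held 154 apart higher, 333 apart lower, 7 opposite up, 32 opposite down, 161 shared up and 244 shared down. Equal totals gave 0 opposite up, 60 shared up and 288 shared down. Quantile normalization gave 6 opposite down, and the length and GC trend removed gave 7 opposite down and 75 shared down. With siDYN-1 only, 8 genes were opposite up and 47 shared up. With siDYN-2 only, 249 were apart lower, 27 opposite down and 158 shared up. Leaving out 1 siRNA library gave 83 to 106 apart higher, 121 to 195 apart lower, 1 to 4 opposite up, 9 to 18 opposite down, 51 to 134 shared up and 112 to 170 shared down. Classes could not be counted without an 18E, DMSO or siCON library. Signs turned for SNN with siDYN-1 only (siDYN term 0.24). Leaving out 1 library, 18E minus knockdown ran from -0.31 to 2.14 for TENT5B and from -1.9 to 0.23 for CBSL, and 18E medians from -0.16 to 0.53 for the unfolded protein response, -0.13 to 0.49 for metallothioneins, -0.81 to 0.0 for antigen presentation and -0.75 to 0.08 for squamous genes. These turned without an 18E or DMSO library of HCC827, or of NCI-H1975 for the unfolded protein response. The causes were not tested. Of other named-gene values 2965 kept their direction and side of the threshold, 169 lost the threshold and 147 gained it. Read depth, which limits low genes, is unknown.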

Other observations

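Genes of the oxidative stress factor NRF2 were split. Of 22, 4 rose with 18E in limma's fit (0.873% of all genes), HMOX1, SLC7A11, OSGIN1 and FTL, and 1, TXNRD1, was apart with 18E higher (0.777%). The TXNRD1 changes were -0.01 with 18E and -1.15 with knockdown in NCI-H1975, and 0.63 and -0.56 in HCC827. The list's median 18E change was 0.24 in NCI-H1975 and -0.01 in HCC827. Its median knockdown change was 0.03 and 0.06. Cytosolic ribosomal protein genes had 18E above knockdown in both lines for 26 of 39 (66.7%, against 26.9% of all genes). In HCC827 this leaned on siDYN-2: the list's median of 18E minus siDYN-1 was -0.04 there, and that of 18E minus siDYN-2 was 0.26. Among 13 EGFR and ERBB family genes and ligands, ERBB2 and ERBB3 fell with 18E (1.12% of all genes), and HBEGF rose (0.873%).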
